A study of Mus musculus with 162 samples.

Results

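The Frizzled receptors Fzd1 to Fzd10 were described in 9 organs of fed and fasted mice. The 10 members are the rows of the count table whose gene symbol is Fzd followed by a number from 1 to 10, out of 53686 rows, and the family was chosen by its CPM in these libraries, which were known beforehand. Their levels across organs are therefore a description and were not tested. Adult C57BL/6J males of 8 to 9 weeks, all with access to water, were either fed ad libitum (0 h) or deprived of food for 2, 8, 12, 18 or 22 h, with 3 mice for each duration, and all were killed at the same clock time. Each of the 18 mice gave olfactory bulb (OB), brain without cerebellum and brainstem (BRN), cerebellum (CBL), brainstem with midbrain (BST), stomach (STM), liver (LIV), interscapular brown fat (iBAT), perigonadal white fat (pgWAT) and posterior subcutaneous white fat (psWAT), so that the mRNA of 18 libraries was sequenced for each organ. The mice of the 6 durations are different animals, and the design asks which transcripts change with the length of a fast in each organ.

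Frizzled proteins span the membrane repeatedly and bind Wnt ligands through a cysteine-rich domain outside the cell. Together with Lrp5 or Lrp6 they pass the signal through Dishevelled proteins to beta-catenin, and without these co-receptors they take part in planar cell polarity and calcium signalling. By sequence the family falls into the groups Fzd1, Fzd2 and Fzd7, then Fzd5 and Fzd8, then Fzd4, Fzd9 and Fzd10, and then Fzd3 and Fzd6. Wnt signalling restrains the formation of fat cells, patterns the liver lobule and maintains epithelial stem cells, which makes the organs sampled here a varied setting for its receptors.

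Library totals ran from 130701 to 27801717 counts, with a median of 8696325. The 5 libraries with the lowest totals for their organ were left out, namely BRN 8 h replicate 3, BRN 18 h replicate 1, STM 12 h replicate 3, iBAT 22 h replicate 1 and psWAT 22 h replicate 2, which left libraries of 3045845 to 27801717 counts. Levels are counts per 1000000 counts of a library (CPM), and 3 counts correspond to 0.343 CPM in a library of the median retained size. All organs carried the markers of their label. The summed level of 5 cerebellar neuron markers had a median of 4112 CPM in CBL, that of 4 olfactory bulb neuron markers 1088 CPM in OB, that of 5 brainstem neuron markers 630.3 CPM in BST, and that of 5 telencephalic neuron markers 195.8 CPM in BRN. Gastric epithelial markers summed to a median of 182244 CPM in STM and hepatocyte markers to 83358 CPM in LIV. The brown adipocyte markers, led by Ucp1 (3960.0 CPM), had a median sum of 6694 CPM in iBAT, and the adipocyte markers one of 29610.2 CPM in pgWAT.

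Several fat libraries stood apart from their label. In psWAT the 6 adipocyte markers, all of them counted and led by Fabp4, summed to between 492 and 27574 CPM, with a median of 3847 CPM. The library psWAT 12 h replicate 3 held 2769 CPM of cerebellar neuron markers, where no other retained psWAT library passed 14.9 CPM. The library pgWAT 22 h replicate 2 held 19207 CPM of smooth muscle markers, 24369 CPM of epididymis markers and only 3935 CPM of adipocyte markers. Another pgWAT library, 18 h replicate 3, held 13178 CPM of epididymis markers, and 2 h replicate 2 held 2896 CPM. The libraries psWAT 12 h replicate 3, pgWAT 22 h replicate 2, BRN 2 h replicate 3 and BRN 18 h replicate 2 were known to lie nearest to another organ. No member had another organ of highest median level without these 4 libraries. In bulk tissue, fewer cells of a type and less RNA in each cell cannot be told apart.

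**Figure D1:**
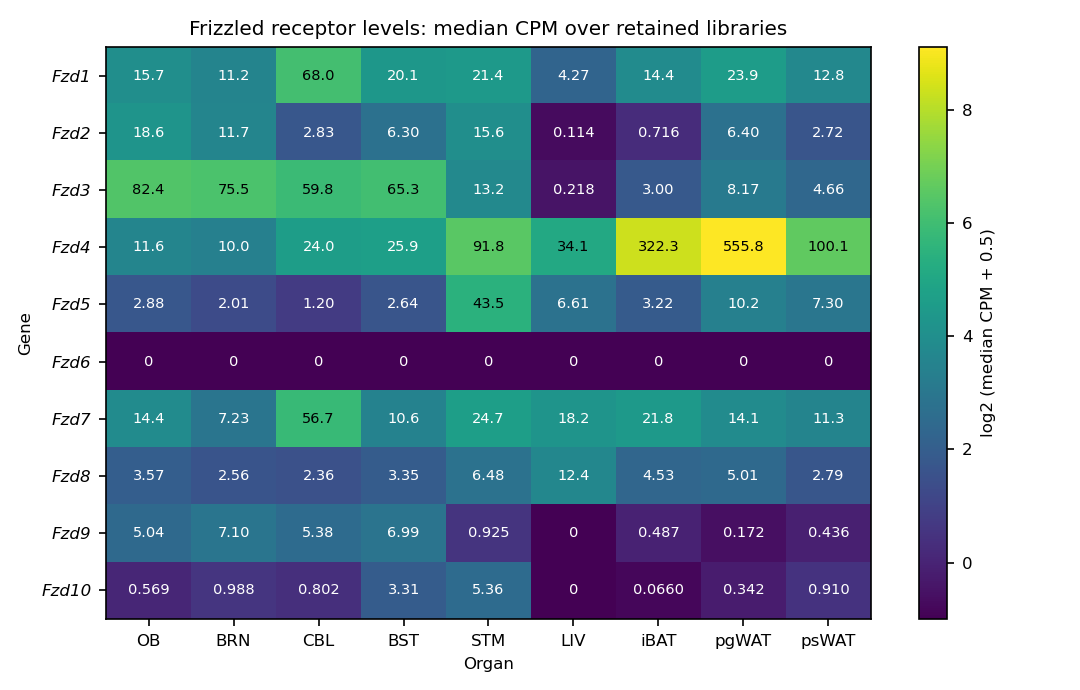
Median CPM of each Frizzled receptor (rows) in each organ (columns) over the retained libraries of all fasting durations, coloured by log2 of the median CPM plus 0.5. Fzd4 is highest in pgWAT (556 CPM) and iBAT (322 CPM), and Fzd6 is listed at 0 in every library.

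Fzd1, a receptor of the beta-catenin branch, was highest in CBL. Its 18 CBL libraries lay between 57.1 and 79.8 CPM with a median of 68.0 CPM. The next organ was pgWAT, with 13.3 to 34.2 CPM and a median of 23.9 CPM, so that the ranges did not overlap and the CBL median was 2.85 times higher. STM (median 21.4 CPM), BST (20.1 CPM), OB (15.7 CPM), iBAT (14.4 CPM), psWAT (12.8 CPM) and BRN (11.2 CPM) followed, each overlapping its neighbour in range. LIV was lowest at 2.82 to 6.90 CPM. Fzd7, the close relative of Fzd1 and Fzd2, had the same leading organ, with 43.5 to 61.7 CPM and a median of 56.7 CPM in CBL. The STM median of Fzd7 was 24.7 CPM, and 1 STM library, 22 h replicate 3, reached 61.6 CPM, near the top of the CBL range. The other 7 organs had medians from 7.23 CPM in BRN to 21.8 CPM in iBAT, with LIV at 18.2 CPM. LIV was thus the lowest organ for Fzd1 but the fourth for Fzd7.

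Fzd2, the remaining member of this group, did not share the cerebellar maximum. OB led with 15.0 to 21.4 CPM and a median of 18.6 CPM. STM was next at a median of 15.6 CPM, but its 17 libraries spread from 10.7 to 46.6 CPM. The ranges and interquartile ranges of OB and STM overlapped, and STM came first when means were used or when libraries were scaled by TMM (trimmed mean of M-values) over all organs. BRN had a median of 11.7 CPM, pgWAT 6.40 CPM, BST 6.30 CPM, CBL 2.83 CPM and psWAT 2.72 CPM. In iBAT Fzd2 reached at most 1.67 CPM. In LIV it reached at most 4 counts in a library, and 7 of 18 libraries had no count. CBL, the leading organ of Fzd1 and Fzd7, was thus the sixth of 9 for Fzd2.

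The 6 smooth muscle markers, led by Myh11, summed to between 5244 and 22303 CPM in STM. In STM 22 h replicate 3, the library with the highest sum, Fzd2 stood at 46.6 CPM and Fzd7 at 61.6 CPM. In STM 18 h replicates 1 and 3, with smooth muscle sums of 16486 and 16504 CPM, Fzd7 stood at 41.4 and 36.8 CPM and Fzd2 at 30.1 and 26.5 CPM. In STM 8 h replicate 2, with the lowest sum, Fzd7 stood at 15.0 CPM and Fzd2 at 12.4 CPM. Libraries with like sums also differed, since fed replicates 1 and 2, with 8231 and 8647 CPM, had 14.4 and 27.7 CPM of Fzd7. The part of muscle content in these levels was not tested.

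Fzd5, a receptor of epithelia, was highest in STM at 17.0 to 80.5 CPM with a median of 43.5 CPM. The second organ, pgWAT, had a median of 10.2 CPM and a highest library of 17.9 CPM, which overlapped the STM range at its lower end only. The order went on with psWAT (7.30 CPM), LIV (6.61 CPM), iBAT (3.22 CPM), OB (2.88 CPM), BST (2.64 CPM), BRN (2.01 CPM) and CBL (1.2 CPM). An antisense transcript of unknown status, Gm38058, overlaps Fzd5 and held 73 counts over all libraries against 13423 for Fzd5; the strand setting of the counting is not stated, so reads of this pair cannot be told apart.

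Fzd8, the sister of Fzd5, was highest in LIV, where its 18 libraries ran from 6.99 to 31.5 CPM with a median of 12.4 CPM. STM followed at a median of 6.48 CPM, with overlapping ranges and separate interquartile ranges. The medians of pgWAT (5.01 CPM), iBAT (4.53 CPM), OB (3.57 CPM), BST (3.35 CPM), psWAT (2.79 CPM), BRN (2.56 CPM) and CBL (2.36 CPM) lay close together. Within LIV the highest Fzd8 libraries were 18 h replicates 1 and 2, at 31.5 and 27.4 CPM, while the mouse of replicate 3 at the same duration stood at 10.4 CPM.

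Fzd4, the receptor for norrin as well as for Wnt ligands and known for its part in retinal vessel growth, had its highest medians in the fat organs. In pgWAT the 18 libraries lay between 141.5 and 738 CPM with a median of 556 CPM. In iBAT the 17 libraries lay between 115.6 and 502 CPM with a median of 322 CPM. The interquartile ranges of these organs were apart but the full ranges overlapped. psWAT had a median of 100.1 CPM and a range from 15.9 to 482 CPM. STM (91.8 CPM), LIV (34.1 CPM), BST (25.9 CPM), CBL (24 CPM), OB (11.6 CPM) and BRN (10.0 CPM) followed. The ranges of OB and BRN both ended at 16.7 CPM, below the lowest CBL library at 17.9 CPM.

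In psWAT 22 h replicate 1, which held 492 CPM of adipocyte markers, Fzd4 stood at 15.9 CPM. In psWAT 8 h replicate 1, which held 27574 CPM of adipocyte markers, Fzd4 stood at 467 CPM. The fed mice showed the same contrast, with 274 CPM of Fzd4 beside 18505 CPM of adipocyte markers in replicate 1 and 31.4 CPM beside 1353 CPM in replicate 3. In pgWAT the lowest Fzd4 libraries were the pair with the highest epididymis sums, at 141.5 CPM in 22 h replicate 2 and 223 CPM in 18 h replicate 3, and the other 16 lay between 388 and 738 CPM. Within those 16 the relation to the adipocyte sum was not the same, since 22 h replicate 1 had the highest adipocyte sum of the organ (40932 CPM) and 388 CPM of Fzd4. Endothelial markers, which had median sums of 505 CPM in pgWAT, 538 CPM in psWAT and 779.7 CPM in iBAT, stood at 326 to 955 CPM in psWAT. What part any cell type had in the Fzd4 level was not tested.

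**Figure D2:**
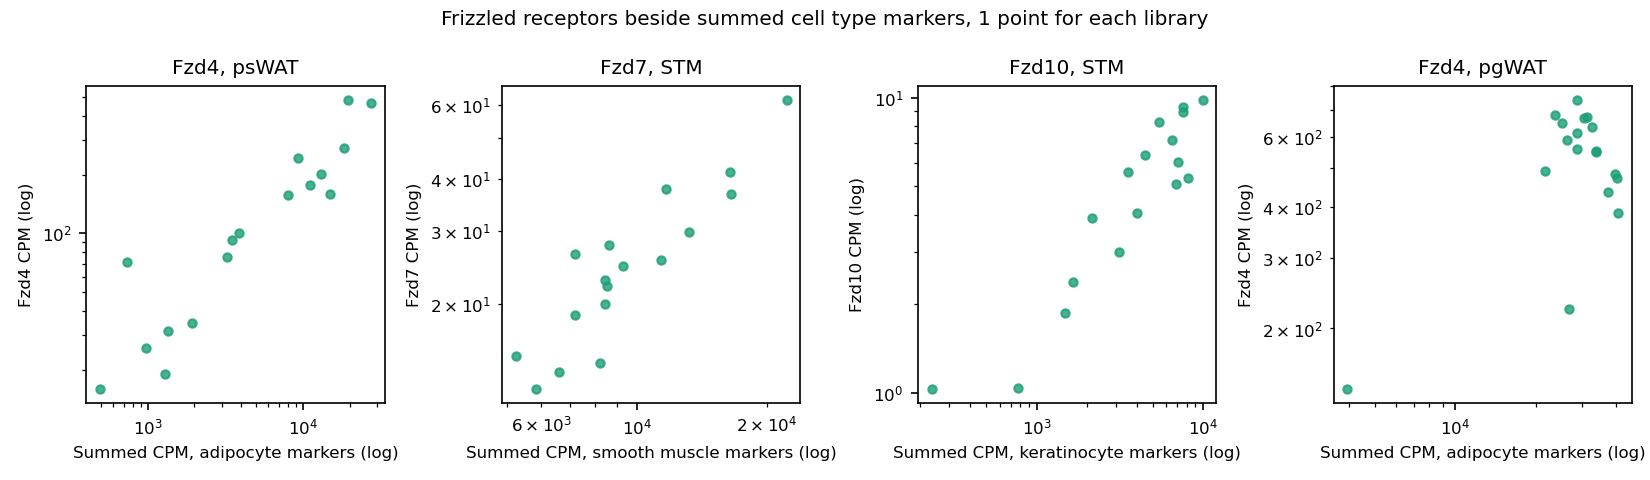
CPM of a Frizzled receptor (vertical, log scale) against the summed CPM of a marker list (horizontal, log scale) in the retained libraries of 1 organ, with 1 point for each library; the pairings were chosen after the values were seen. In psWAT the points run from 492 CPM of adipocyte markers with 15.9 CPM of Fzd4 to 27574 CPM with 467 CPM, while the pgWAT point far to the left is 22 h replicate 2.

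Fzd9, a member found in neural tissue and bone, had its highest medians in the central nervous system. BRN (median 7.10 CPM), BST (6.99 CPM), CBL (5.38 CPM) and OB (5.04 CPM) led, and the lowest OB library (3.11 CPM) lay above the highest STM library (2.34 CPM), while the lowest CBL library (2.29 CPM) lay just below it. BRN and BST did not differ beyond their spread, and BST came first with means, with the fed mice alone, with no library left out and without replicate 2. Outside the nervous system the medians were 0.925 CPM in STM, 0.487 CPM in iBAT, 0.436 CPM in psWAT and 0.172 CPM in pgWAT, and 10 of 18 LIV libraries had no count. Single fat libraries nevertheless reached nervous system levels. The iBAT library 12 h replicate 3 had 5.77 CPM of Fzd9 beside 10636 CPM of skeletal muscle markers, the highest sum in iBAT, whereas 12 h replicate 1 had no count beside 42 CPM. In psWAT the highest values were 5.97 CPM in 12 h replicate 3, the library with cerebellar markers, and 4.58 CPM in 2 h replicate 2, which held 33759 CPM of skeletal muscle markers. The part of muscle or nervous tissue in these values was not tested.

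Fzd10 had 2182 counts over all libraries and no more than 85 in 1 library. It was highest in STM, with 1.03 to 9.78 CPM and a median of 5.36 CPM, and second in BST, with 1.25 to 5.43 CPM and a median of 3.31 CPM; both the ranges and the interquartile ranges overlapped, and BST came first in the fed mice alone. BRN, psWAT, CBL, OB, pgWAT and iBAT had medians of 0.988, 0.910, 0.802, 0.569, 0.342 and 0.0660 CPM. In LIV 17 of 18 libraries had no count and the last had 1. In STM the 6 keratinocyte markers, led by Krt10 and all counted, summed to between 234.2 and 9947 CPM. The library with the lowest keratinocyte sum, 22 h replicate 1, had 1.03 CPM of Fzd10. The library with the highest keratinocyte sum, 22 h replicate 3, had 9.78 CPM. These libraries differed in more than keratinocyte markers. Replicate 3 also had the highest smooth muscle sum in STM (22303 CPM). Mitochondrial genes made up 24.4% of counts in 22 h replicate 1 and 11.5% in 22 h replicate 3. The mouse forestomach is lined by a keratinised epithelium, and how much of it entered each library is not recorded; its part in the Fzd10 level was not tested.

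Fzd3, which guides axons through planar cell polarity signalling, divided the nervous system from the rest. OB (lowest 63.5 CPM, interquartile range 76.4 to 96.4 CPM, median 82.4 CPM), BRN (33.5 to 129.6 CPM, median 75.5 CPM), BST (57.4 to 71.0 CPM, median 65.3 CPM) and CBL (53.3 to 72.1 CPM, median 59.8 CPM) overlapped one another. BRN came first with the fed mice alone, without replicate 2 and with TMM scaling over all organs. The highest STM library had 16.5 CPM, below the lowest library of OB, BRN, BST or CBL, and the CBL median was 4.53 times the STM median of 13.2 CPM. pgWAT (8.17 CPM), psWAT (4.66 CPM) and iBAT (3.00 CPM) followed. In LIV the level reached at most 10 counts in a library, a median of 0.218 CPM. The range of psWAT ended at 45.1 CPM through 12 h replicate 3, the library with 2769 CPM of cerebellar neuron markers; without it the highest psWAT library of Fzd3 was 8 h replicate 1 at 11.7 CPM.

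**Figure D3:**
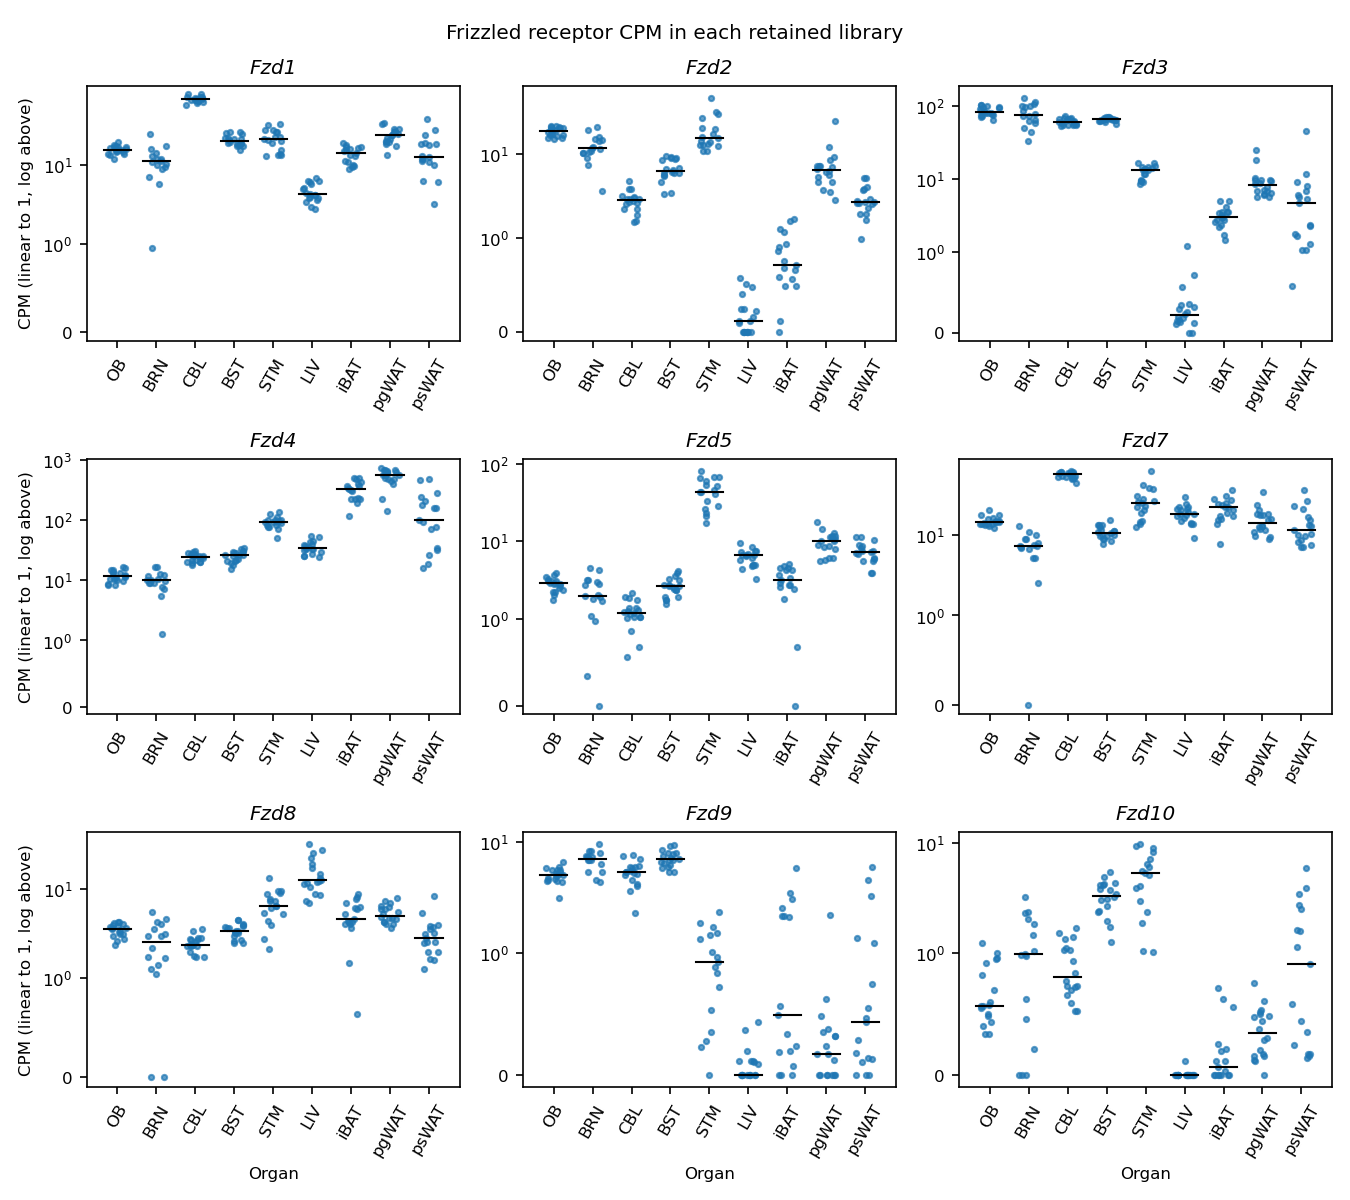
CPM of each Frizzled receptor in every retained library, by organ, on an axis that is linear to 1 CPM and logarithmic above; points are libraries and bars are medians. Every OB, BRN, CBL and BST library lies above every STM library for Fzd3, and Fzd4 in psWAT spreads from 15.9 to 482 CPM.

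Fzd6, the relative of Fzd3 that orients hair follicles, was listed at 0 in every library. The same holds for 1598 of 21640 protein-coding rows of the table. Its nearest annotated protein-coding neighbours on chromosome 15 were also close to 0, with 20 counts for Baalc, 4 for Cthrc1 and 9 for Slc25a32 over all libraries, while Atp6v1c1 and Dcaf13 on either side of them had 234729 and 20134 counts. No statement on the expression of Fzd6 is made from these values, and 9 members remain in what follows.

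The members differ in gene structure. On mouse build GRCm38, 7 of the 10 have an open reading frame in 1 coding exon, among them Fzd1 (chromosome 5, 4753839 to 4758035, minus strand) and Fzd7 (chromosome 1, 59482424 to 59486955, plus strand). Fzd4 has 2 coding exons (chromosome 7, 89404355 to 89413134, plus strand), and Fzd3 has 6 (chromosome 14, 65192449 to 65262463, minus strand). Fzd5 lies on chromosome 1 (64730558 to 64737751, minus strand), Fzd2 on chromosome 11 (102604396 to 102608058, plus strand), Fzd8 on chromosome 18 (9212163 to 9218136, plus strand), and Fzd9 and Fzd10 on chromosome 5. Coding lengths were close, from 1611 bases for Fzd4 to 2127 for Fzd6, but annotated exon lengths ran from 2.29 kb for Fzd9 to 12.8 kb for Fzd3. Levels of different members are therefore compared only as CPM for each kb of exon.

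On that scale Fzd3 led in OB (median 6.43 CPM per kb), BRN (5.90 CPM per kb) and BST (5.10 CPM per kb), Fzd1 in CBL (16.2 CPM per kb), and Fzd4 in STM (13.7 CPM per kb), LIV (5.08 CPM per kb), iBAT (48 CPM per kb), pgWAT (82.7 CPM per kb) and psWAT (14.9 CPM per kb). The lead was held in every library of CBL, iBAT and pgWAT, in 16 of 18 libraries of OB, in 16 of 18 of LIV, in 16 of 17 of STM and in 16 of 17 of psWAT. It was held in 12 of 16 of BRN, where Fzd9 led in 2 and Fzd1 in 2, and in 11 of 18 of BST, where Fzd1 led in 6 and Fzd4 in 1. In BST the medians of Fzd3 and Fzd1 (4.79 CPM per kb) did not differ beyond their spread.

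Fzd4 made up a median of 86.1% of the family's CPM per kb in pgWAT, 81.7% in iBAT and 58.4% in psWAT, where it varied from 23.9% to 86.2%. In BRN Fzd3 had 31.5%. In OB the leading member had 27.4%, followed by Fzd2 with 21.6% and Fzd1 with 15.9%, and in BST Fzd3, Fzd1, Fzd4 and Fzd9 had 22.2%, 21.1%, 17.0% and 13.5%. Fzd1 and Fzd7 had 39.8% and 30.8% in CBL. In LIV the order was Fzd4 (38%), Fzd7 (29.5%) and Fzd8 (15.2%), and in STM it was Fzd4 (35.9%), Fzd5 (18.4%), Fzd7 (13.6%) and Fzd1 (13.2%). Summed over the family, the median was 98.3 CPM per kb in pgWAT, 59.5 in iBAT, 40.7 in both CBL and STM, 31.1 in psWAT, 23.6 in OB, 23.2 in BST, 20.3 in BRN and 13.7 in LIV.

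Members were also compared by the likeness of their patterns over the retained libraries (16 to 18 of each organ), as Pearson correlations of log2(CPM + 0.5), which are a description because libraries of 1 organ and 1 mouse are not independent. Among the members the pair most alike was Fzd3 and Fzd9 (r = 0.83), then Fzd2 and Fzd3 (0.72), and the least alike was Fzd4 and Fzd9 (-0.64). The relatives Fzd1 and Fzd7 had r = 0.53 and Fzd5 and Fzd8 0.47, whereas Fzd2 and Fzd7, also of 1 sequence group, had -0.15. Of 21588 other genes, those most like Fzd4 were Mccc1 (0.94), an enzyme of leucine breakdown, Cd36 (0.94), a fatty acid transporter, and Pnpla2 (0.93), the triglyceride lipase of fat cells. Those most like Fzd3 were Clstn1 (0.97), Nbea (0.97) and Fam110b (0.96), and those most like Fzd9 were Akap6 (0.93), Rbfox1 (0.93), a neuronal splicing factor, and Eef1a2 (0.92), a translation factor of neurons and muscle.

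For most of the remaining members, the genes most like them shared their leading organ. Fzd5 was most like Galnt4 (0.89), Gata6 (0.88) and Mfsd7a (0.88), all highest in STM. Fzd2 was most like Fhl2 (0.91), Col16a1 (0.91) and Sdk1 (0.90), whose highest median was in STM while that of Fzd2 was in OB. Fzd8 was most like Sdr42e1 (0.78), Ttc23 (0.76) and Tsku (0.76), all highest in LIV. Fzd1 was most like Inpp5a (0.85), Boc (0.84) and Map4k3 (0.83), and Fzd7 most like Kank2 (0.81), Il20rb (0.73) and Mtus1 (0.73), all highest in CBL. Fzd10 had Bdkrb2 (0.82), Itgb4 (0.80), an integrin of basal epithelial cells, both highest in STM, and Lypd6b (0.79), highest in BST. With deviations from organ medians alone the correlations were lower for each of these 27 genes, for example 0.76 for Fzd4 with Cd36 and 0.57 for Fzd3 with Clstn1.

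The ligands and co-receptors of the pathway, taken from lists of pathway genes, also differed between organs. Among the 19 Wnt ligands on the scale of CPM per kb, Wnt7a led in OB (15.0) and CBL (23.4), Wnt7b led in BRN (8.65) and BST (4.57), Wnt4 in STM (10.2), Wnt5b in LIV (3.62), Wnt5a in iBAT (2.00) and pgWAT (3.30), and Wnt11 in psWAT (2.30). Wnt7a had no count in any retained iBAT or STM library. Norrin (Ndp), the ligand that acts through Fzd4, had medians of 21.6 CPM in OB, 21.2 CPM in CBL, 13.2 CPM in BRN and 10.1 CPM in BST, but a highest library of 0.130 CPM in iBAT and of 0.968 CPM in pgWAT, the organs where Fzd4 was highest. Tspan12, the tetraspanin that assists norrin at Fzd4, had its highest median in pgWAT (272 CPM), then LIV (195.6 CPM), iBAT (191.4 CPM) and psWAT (50.1 CPM).

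The co-receptor Lrp6 was more even, with medians from 28.9 CPM in BRN to 94.6 CPM in pgWAT. Lrp5 ran from 5.35 CPM in BRN to 56.7 CPM in STM. Wls, which carries Wnt proteins to the cell surface, was highest in pgWAT (147.2 CPM) and lowest in LIV (3.76 CPM), and Porcn, which acylates them, was highest in CBL (114.5 CPM). The ligase Rnf43, which removes Frizzled proteins from the membrane, stood at 19.8 CPM in STM and 18.6 CPM in LIV but at 0.112 CPM in iBAT, whereas its relative Znrf3 ranged from 6.72 CPM in iBAT to 15.7 CPM in OB. Of the secreted inhibitors, Dkk3 led per kb in BRN (57.8), Frzb in OB (37.7) and Sfrp1 in STM (18.9). Notum, an enzyme that inactivates Wnt proteins, had a median of 62.3 CPM in LIV and under 3 CPM elsewhere. The related receptor Smo, which serves Hedgehog and not Wnt signalling, ranged from 6.04 CPM in LIV to 66.6 CPM in pgWAT.

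The effect of fasting was tested within each organ. The 6 durations were fitted together with edgeR's quasi-likelihood model, and a gene was called when the joint test of the 5 fasting durations gave a Benjamini-Hochberg adjusted p under 0.05 over all genes kept in that organ. Fzd6 was never kept. Also not kept for low counts were Fzd2, Fzd3, Fzd9 and Fzd10 in LIV, Fzd10 in iBAT, and Fzd9 and Fzd10 in pgWAT, which left 74 pairs of a member and an organ. Of these, 4 were called and 19 had an unadjusted p under 0.05. The 19 included 2 of 9 members in OB, where 32.4% of all genes had such a p, 3 of 5 in LIV (35.2%) and 2 of 8 in iBAT (41.6%). In OB 1 of 9 members was called where 15.3% of all genes were, in LIV 1 of 5 where 16.0% were, and in iBAT 2 of 8 where 29% were, shares near those of all genes. No member was called in the other organs, where 6.55% of all genes were called for STM, 2.99% for CBL, 0.107% for BST, 0.00597% for BRN, and 0% for both pgWAT and psWAT. The members with unadjusted p under 0.05 there numbered 5 in BST (where 11.1% of all genes had such a p), 3 in psWAT (19.1%), 2 in STM (23.7%), 1 in BRN (16.6%), 1 in CBL (23.8%) and 0 in pgWAT (10.3%). DESeq2 called 2 in BST (where it called 1.26% of all genes), 2 in psWAT (12.3%), 1 in STM (17.2%), 1 in BRN (9.42%) and 0 in CBL (11.1%) and pgWAT (3.39%). It called 1 in OB (22.5%), 2 in iBAT (40.5%) and 3 of 5 in LIV (25.6%), namely Fzd4, Fzd7 and Fzd8. With no filter on low counts edgeR called the same 3 in LIV, where 15.8% of all genes were called. Whether these shares differ was not tested.

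In iBAT, Fzd5 fell at 22 h. Its CPM normalised within the organ stood at 2.1, 5.47 and 2.84 in the 3 fed mice. The values were 4.18, 4.62 and 4.27 at 2 h, 3.45, 5.13 and 3.77 at 8 h, 2.68, 4.08 and 2.47 at 12 h, and 2.71, 2.43 and 3.07 at 18 h. At 22 h the 2 retained libraries stood at 0 and 0.667, from 0 and 6 counts, both below every earlier library. The log2 fold change at 22 h was -2.91 (SE 0.63, n = 2 against 3, adjusted p = 0.00215 by edgeR), and the joint test gave an adjusted p of 0.0150. In the same comparison 29.7% of all genes passed the adjusted p and an absolute log2 fold change over 1. The count of 0 came from a library of 3156101 counts, in which 3 counts are 0.951 CPM. The joint call was lost without both 22 h libraries (adjusted p = 0.629 by edgeR) and without replicate number 1. The comparison of 22 h with 0 h still passed without replicate number 1. Leaving out replicate number 2 or 3, or 22 h replicate 2 or 3, leaves 1 library at 22 h. The spread then comes from the other durations, so neither the joint test nor that comparison is read there.

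Fzd4 in iBAT passed the joint test with an adjusted p of 0.0306 (edgeR). It stood at 259, 355 and 182.8 normalised CPM in fed mice, at 397, 489 and 508 at 8 h, and at 116.1 and 216 at 22 h. All 3 libraries at 8 h lay above the fed range, and of the 22 h libraries 1 lay below it and 1 within it. At 2 h the values were 335, 298 and 300.5, at 12 h 221, 457 and 221, and at 18 h 357, 364 and 407. The largest fitted log2 difference was 0.81 at 8 h (SE 0.29, n = 3, adjusted p = 0.353 by edgeR), so that no single duration passed against 0 h. The joint call was lost without the 22 h libraries (adjusted p = 0.455 by edgeR) and without replicate number 1. Among single libraries it was lost without 2 h replicate 3, 8 h replicate 2, 8 h replicate 3 or 18 h replicate 3. Settings that leave 1 library at 22 h are not read.

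The 22 h libraries of iBAT differed in more than these genes. They were sequenced on lanes 1 and 3, which held no other iBAT library, so lane and duration cannot be told apart. In 4 length classes with equal numbers of kept genes, the median log2 fold change at 22 h in iBAT was 0.75 for the shortest exon lengths and 0.13, -0.33 and -0.89 for the following classes. The difference between the longest and the shortest class was -1.63, and in the other 44 comparisons of a duration with 0 h it lay between -0.89 and 0.54. Fzd4 (6.72 kb) and Fzd5 (6.92 kb) belong to the class of longest genes. The share of counts from mitochondrial genes was 5.47% and 11.8% at 22 h and 12.9% to 36.2% in the other retained iBAT libraries. The adipocyte markers summed to 23678 and 21560.4 CPM at 22 h and to between 9622 and 16267 CPM before, and the endothelium markers to 545 and 573 CPM at 22 h and to between 551 and 1274 CPM before. Of 10 endothelium markers 8 were called with the largest difference at 22 h, 6 of them negative (Kdr -2.41 and Cdh5 -2.05 among them) and 2 positive (Cldn5 1.19 and Egfl7 0.95). Myh11 (-2.18) of smooth muscle and Pdgfra (-1.74) of fibroblasts were called too, and 3 of 6 adipocyte markers with a positive difference. Of the brown adipocyte markers, Cox7a1 (1.61) and Cidea (1.06) were called with the largest difference at 22 h, and Elovl3 (-2.81) at 8 h. Cd14 (1.76) of macrophages, Krt10 (1.54) of keratinocytes and Cela1 (2.32) of pancreatic acinar cells were also called at 22 h. So were Gja1 (-1.82) of astrocytes and Atp4b (-3.24) of gastric epithelium. The part of gene length, mitochondrial share or cell make-up in the Fzd5 and Fzd4 values was not tested.

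In LIV, Fzd4 passed the joint test with an adjusted p of 0.0389 (edgeR). The fed mice stood at 34.1, 33.4 and 25.8 normalised CPM and the mice fasted for 18 h at 49.3, 51.3 and 40.9, all 3 above the fed range. The log2 fold change at 18 h was 0.60 (SE 0.17, n = 3, adjusted p = 0.0302), which is under the fold threshold. At 22 h the values were 27.1, 30.0 and 34.7, within or near the fed range, and at 2 h 39.1, 26 and 25.4. The values were 37.1, 35.3 and 44.3 at 8 h and 32.1, 31.1 and 40.6 at 12 h. The hepatocyte markers summed to 75348, 94574 and 85664 CPM at 18 h and the endothelium markers to 97.1, 145.1 and 138.3 CPM, against 76319 to 85404 CPM and 92.7 to 98.5 CPM in the fed mice. LIV libraries up to 8 h replicate 2 were sequenced on lane 1 and the later ones on lane 2. With lane as a covariate the joint adjusted p was 0.118 (edgeR). Only 8 h had libraries on both lanes, so the lane term rests on its replicates 1 and 2 against replicate 3. That fit can hardly tell lane and the later durations apart. The joint call was lost in 14 of 28 other settings, with adjusted p from 0.00123 to 0.458. Among them were those without replicate 1 or 2 at 0, 18 or 22 h, or replicate 2 or 3 at 2 h. Others were those without 8 h replicate 1 or 12 h replicate 2. The settings with no library left out and without the 4 libraries nearest another organ change no LIV library, so they repeat the main fit.

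In OB, Fzd3 passed the joint test with an adjusted p of 0.0226 (edgeR). The fed mice stood at 79.1, 99.1 and 75.3 normalised CPM and the mice fasted for 18 h at 64.3, 69.3 and 74.5, all 3 below the fed range. The values were 78.1, 101.5 and 84.0 at 2 h, 86.5, 97.9 and 93.3 at 8 h, and 73.1, 80.8 and 80.7 at 22 h. At 12 h they were 89.3 and 98.1 in replicates 1 and 2, and replicate 3 lay above every other library of the organ. The largest fitted difference from 0 h was -0.28 at 18 h on the log2 scale (SE 0.10, n = 3), with an adjusted p of 0.0720, so no single duration passed. Fzd3 has the longest exons of the family, and the class of longest genes had a median log2 fold change of -0.19 at 18 h in OB. OB libraries up to 8 h replicate 2 were sequenced on lane 3 and the later ones on lane 4. With lane as a covariate the joint adjusted p was 0.0539 (edgeR). As in LIV, only 8 h had libraries on both lanes, so that fit can hardly tell lane and the later durations apart. In OB the endothelium markers summed to 132.9 to 153.7 CPM in fed mice and 107.8 to 145.7 CPM at 18 h, and the neuron markers to 7056 to 7467 CPM and 6927 to 7054 CPM. Single markers called there with the largest difference at 18 h were Syt1 (-0.30) of neurons, Aqp4 (-0.45) and Gfap (0.30) of astrocytes, Mog (0.38) of oligodendrocytes and Krt10 (0.62) of keratinocytes, and the part of cell make-up in the Fzd3 values was not tested. The joint call was lost in 5 of 28 other settings, with adjusted p from 2.3e-05 to 0.237. It was lost with lane as a covariate, without replicate 1 (0.114) and without replicate 3 (0.237). It was also lost without 12 h replicate 3 (0.0547) and without 18 h replicate 1 (0.0764). The settings with no library left out and without the 4 libraries nearest another organ change no OB library, so they repeat the main fit.

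**Figure D4:**
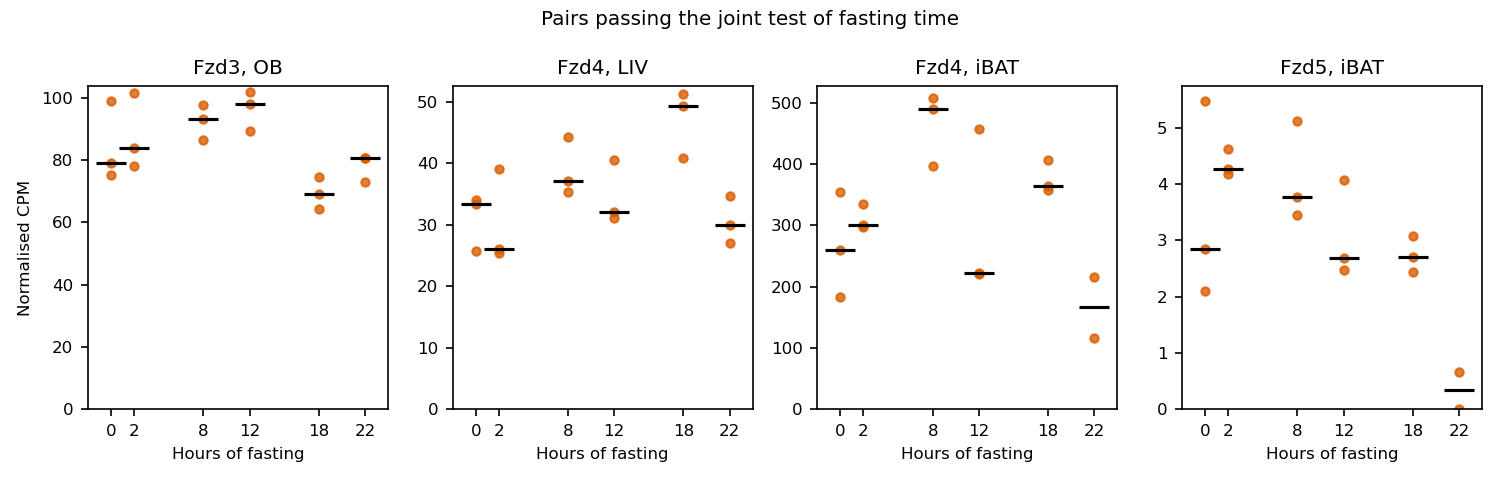
Normalised CPM by hours of fasting for the 4 pairs of receptor and organ that passed the joint test; points are libraries and bars are medians, with 3 libraries at each duration except 2 at 22 h in iBAT. Fzd5 in iBAT stands at 0 and 0.667 at 22 h.

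Against 0 h, with an absolute log2 fold change over 1 required, 1 of 370 comparisons of a member passed, that of Fzd5 in iBAT at 22 h. Of the 370, 30 had an unadjusted p under 0.05, with no share of all genes given, so nothing is read from that count. DESeq2 called 3. They were Fzd5 and Fzd8 in STM at 18 h, where it called 1995 of 16281 genes for at least 1 duration, and Fzd5 in iBAT at 22 h (4635 of 14529). In edgeR the shares of all genes that passed for at least 1 duration were 0.544% for OB, 5.93% for BRN, 0.676% for CBL, 8.75% for STM, 4.16% for LIV, 29.8% for iBAT and 0.00609% for pgWAT, with 0% for both BST and psWAT. The 5 comparisons of an organ share its 0 h mice. Whether the effect of fasting differed between organs was asked with an organ by duration interaction in limma, added after the data had been seen. It called 5 of 9 members where 52.2% of all genes were called, and 8 of 9 where 73.5% were when each organ had its own variance weight, so nothing is read from the members' share.

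The 5 pairs with the smallest p in the joint test among those not called were Fzd2 in BST and BRN, Fzd4 and Fzd1 in BST, and Fzd7 in STM. Fzd2 in BST stood at 6.48, 8.35 and 5.99 normalised CPM in fed mice, at 9.06, 8.87 and 9.10 at 2 h, and at 6.77, 3.38 and 3.48 at 18 h (joint adjusted p = 0.101 by edgeR). In BRN it stood at 10.9, 9.45 and 11.0 in fed mice, at 14.8, 18.2 and 20.4 at 2 h, and at 4.04 and 7.12 at 18 h (joint adjusted p = 0.122). In both organs the 2 h values lay above and most of the 18 h values below the fed range. At 22 h Fzd2 stood at 16.7, 17.2 and 13.6 in BRN, all above the fed range, and at 5.95, 8.84 and 9.33 in BST, on both sides of it. At 8 and 12 h it ran from 9.46 to 11.5 in BRN and from 4.65 to 6.44 in BST. The libraries BRN 2 h replicate 3 and 18 h replicate 2 are among the 4 nearest another organ. The left-out BRN 18 h replicate 1 had 32.2 CPM of Fzd2 from 9 counts. The BRN libraries of fed mice were sequenced on lanes 5, 3 and 1, and those of 2 h on lanes 4, 4 and 2. Both retained 18 h libraries were on lane 1, and the part of lane in BRN was not tested. DESeq2 called 4 of these 5 pairs, all but Fzd1 in BST, and no single comparison with 0 h passed in edgeR. Fzd4 in BST (joint adjusted p = 0.229) and Fzd1 in BST (0.256) ranged from 15.4 to 34.2 and from 15.9 to 26.6 normalised CPM. Fzd7 in STM stood at 15.8, 26.4 and 14.9 in fed mice and at 27.6, 29.6 and 53.9 at 22 h (joint adjusted p = 0.0800), while the smooth muscle sums were 8231, 8647 and 5849 CPM in fed mice and 9285, 13246 and 22303 CPM at 22 h. STM libraries up to 8 h replicate 2 were sequenced on lane 5 and the later ones on lane 6, and the part of lane was not tested there.

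The rest of the pathway was counted by the same joint test. In OB, where 15.3% of all genes were called, 4 of 12 co-receptors and other Wnt receptors were called, all with a negative largest difference, among them Lrp6 (log2 fold change -0.49 at 18 h, SE 0.10, adjusted p = 0.00362 by edgeR), Lgr5 (-0.31 at 18 h) and Lgr6 (-0.20 at 18 h), R-spondin receptors of stem cells. The OB call among 11 ligands was Wnt7b (0.28 at 18 h), and those among 17 relay genes were Gsk3b (-0.24 at 18 h), the kinase that marks beta-catenin for breakdown, and Pygo1 (-0.30 at 18 h). In OB 6 of 10 endothelium markers and 3 of 5 smooth muscle markers were also called, all with a negative largest difference, and the part of cell make-up was not tested. In LIV, where 16.0% of all genes were called, the relay genes had 5 of 15 called, 3 with a positive and 2 with a negative largest difference, among them Dvl2 (0.99 at 22 h), Dvl1 (0.65 at 12 h) and Ctnnb1, which encodes beta-catenin (-0.39 at 12 h). Of the marker genes in LIV, Mylpf (3.79) and Myh4 (4.61) of skeletal muscle, Ahsg (-0.77) and Cps1 (-0.49) of hepatocytes, Dcn (-0.52) of fibroblasts, Doc2g (1.65), a marker of olfactory bulb neurons, and Cox7a1 (1.37) of brown adipocytes were called with the largest difference at 12 h. Fgb (0.76 at 2 h) of hepatocytes and Elovl3 (-1.58 at 18 h) of brown adipocytes were called as well. The 7 skeletal muscle markers, led by Acta1, summed to 758.4, 293.5 and 81.9 CPM at 12 h in LIV and to 28.4, 24.2 and 0.818 CPM in fed mice, and their part in the LIV calls was not tested. Also in LIV, Lrp5 (-0.76 at 18 h, SE 0.17) was called among 10 co-receptors and Rnf43 (-1.37 at 2 h, SE 0.26) among 2 ligases and among 11 target genes of beta-catenin. Of 8 planar cell polarity genes in LIV, Dact1 (-0.74 at 8 h) and Prickle3 (0.92 at 8 h) were called.

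In iBAT 29% of all genes were called. There every called gene of these lists outside the Frizzled receptors had a negative largest difference, and except for Rspo4 at 8 h the largest difference was at 22 h. The relay genes had 6 of 16 called, led by Bcl9 (-5.05, SE 0.74), Ctnnb1 (-1.39, SE 0.23) and Apc (-2.26, SE 0.42). The co-receptors Lrp6 (-1.39) and Lrp5 (-2.03) were called out of 10, Wnt5a (adjusted p = 0.00523) out of 5 ligands, Kremen1 (-1.01) out of 8 inhibitors, Ccnd1 (-2.05) and Tbx3 (-1.55) out of 8 target genes, Prickle2 (-2.12) out of 10 planar cell polarity genes, and Rspo4 (-4.76) as the sole gene kept of its list. These values stand beside the shift of the longest genes by -0.89 at that duration. In STM, with 6.55% of all genes called, the calls were Lrp5 (-0.76 at 18 h) and Lgr6 (1.85 at 12 h) of 12 co-receptors, Dkk3 (1.08 at 18 h) of 12 inhibitors and Dact3 (1.26 at 22 h) of 11 planar cell polarity genes. Of the marker genes in STM, 4 of 4 pancreatic acinar cell, 2 of 6 epithelium (Epcam -1.59 and Cldn7 -4.45 at 18 h), 1 of 8 gastric epithelium (Tff2 -2.26 at 18 h) and 1 of 6 adipocyte markers were called with a negative largest difference. With a positive one, 3 of 3 brainstem neuron, 1 of 4 neuron, 1 of 1 olfactory bulb neuron and 1 of 10 endothelium markers were called. The pancreatic acinar cell markers, led by Cela1, summed to 220.3, 121.5 and 506.2 CPM in the fed STM libraries and to 11.7, 26 and 15.3 CPM at 18 h, and the part of cell make-up in the STM calls was not tested. In CBL, with 2.99% of all genes called, the calls were Porcn (-0.56 at 22 h, SE 0.10) of 3 secretion genes and Bcl9l (-0.43 at 12 h) of 17 relay genes. The markers Mog (0.53 at 22 h) of oligodendrocytes and Dio2 (0.35 at 22 h) of brown adipocytes were called in CBL too. The part of cell make-up there was not tested. In OB the planar cell polarity genes Celsr2 (-0.32 at 18 h) and Prickle2 (-0.27 at 18 h) of 10 were called, with Lgr5 as the sole call of 13 target genes. No gene of these lists was called in BRN, BST, pgWAT or psWAT, and Smo was called in no organ; the lists with the most genes of unadjusted p under 0.05 there were the relay genes in BRN (4 of 17), planar cell polarity in BST (3 of 10), target genes in pgWAT (4 of 11) and inhibitors in psWAT (7 of 12). Of all genes, 16.6% in BRN, 11.1% in BST, 10.3% in pgWAT and 19.1% in psWAT had an unadjusted p under 0.05.

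Promoter sequence was available for 6 of the 10 members from RefSeq on build GRCm38.p6, as the 250 bases before and 50 after the gene start. The promoters of Fzd4 and Fzd5, the members called in iBAT, are printed 5' to 3' on the strand of the gene, with every GGGCGG and its reverse complement in capitals. This letter run, a core of GC boxes, was found 8 times at Fzd4 (plus strand, chr7:89404116-89404415) and 10 times at Fzd5 (minus strand, chr1:64737701-64738000), overlapping matches included, and occurs in 35.7% of 32851 promoters. It was found 7 times at Fzd7, once at Fzd9, once at Fzd10 and not at Fzd1. CTTTGT, a core of the binding site of Tcf and Lef proteins, had no match in either, 1 match at both Fzd1 and Fzd7, and occurs in 18.7%, and CAGGTG, an E-box, had 0 and 1 matches and occurs in 20.2%. Bases G and C made up 72.7% and 75.7% of the promoters of Fzd4 and Fzd5, and 54% at Fzd1, 66.7% at Fzd7, 77.7% at Fzd10 and 78% at Fzd9.
Fzd4: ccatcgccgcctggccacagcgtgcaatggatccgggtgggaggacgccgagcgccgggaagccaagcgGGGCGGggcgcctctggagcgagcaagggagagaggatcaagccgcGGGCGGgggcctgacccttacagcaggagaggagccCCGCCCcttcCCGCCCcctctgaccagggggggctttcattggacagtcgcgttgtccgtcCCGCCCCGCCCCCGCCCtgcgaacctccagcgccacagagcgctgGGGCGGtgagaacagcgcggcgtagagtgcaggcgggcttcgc
Fzd5: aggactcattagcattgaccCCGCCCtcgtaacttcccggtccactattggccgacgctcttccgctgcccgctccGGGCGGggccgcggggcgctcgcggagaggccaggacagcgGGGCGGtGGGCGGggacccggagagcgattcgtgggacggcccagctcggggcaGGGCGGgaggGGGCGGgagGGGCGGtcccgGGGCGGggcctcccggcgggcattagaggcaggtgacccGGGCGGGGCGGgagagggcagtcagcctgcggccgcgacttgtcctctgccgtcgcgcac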

How the data were processed

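Counts are raw read counts per gene, deposited by the authors, from stranded mRNA libraries aligned with TopHat2 and counted with HTSeq on Gencode M16; the strand setting is not stated. The members and the lists of pathway and marker genes were chosen with earlier results of these data known. CPM is the count over the library total. In each organ, genes at or above the CPM of 10 counts in a library of median size in at least 3 libraries were fitted with edgeR 4.0.16 in R 4.3.3 (TMM, robust quasi-likelihood), with fasting duration as the term. Calls used a Benjamini-Hochberg adjusted p under 0.05, and for single durations also an absolute log2 fold change over 1. DESeq2 1.42.0, limma 3.58.1, other filters, scalings, replicate blocks and left-out libraries were tried. The fits were tested on simulated data. Interaction, lane, gene length and iBAT without 22 h were added after seeing the data. All members were named, with the 3 genes most like each, at most 3 called genes of each list and organ, every called pair, and the 5 pairs with the smallest p otherwise. Exon lengths are from Gencode M21. No pair of libraries of 1 group held the same counts. The planned protein comparison was not run, since no protein sequences were at hand. Floors cover counting error only. Values of marker lists with none in the text are not reported here.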

Additional observations from a re-analysis of the deposited data

Results flagged for a closer look

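Some members stood higher in a left-out library than in any fed library of the same organ, beyond the counting error of that 1 library. The spread between mice is not part of that error, so no difference from the fed mice is read from these values. Fzd2 stood at 32.2 CPM in BRN 18 h replicate 1, from 9 counts, against a highest fed value of 12.2 CPM. Fzd3 stood at 20.3 CPM in STM 12 h replicate 3, from 93 counts, against 13.7 CPM. In iBAT 22 h replicate 1, Fzd1 stood at 16.3 CPM, from 44 counts, against 11.3 CPM, and Fzd8 at 8.15 CPM, from 22 counts, against 4.38 CPM. The values of Fzd1 and Fzd8 lie within the retained iBAT libraries, which ran from 8.82 to 18.9 CPM and from 0.634 to 8.79 CPM.

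Whether the effect of fasting differed between organs was tested for 9 members by an organ by duration interaction in limma, with 40 contrasts over the retained libraries, added after seeing the data. The fit with 1 variance for each gene was run first and called 5 members where 52.2% of 22113 genes were called: Fzd2 (adjusted p = 5.0e-04), Fzd3 (0.00153), Fzd4 (0.0422), Fzd5 (0.0256) and Fzd7 (0.0165). The fit with a variance weight for each organ was run after it and called 8 members where 73.5% of genes were called, at adjusted p of 0.0251 for Fzd1, 4.1e-05 for Fzd2, 3.6e-05 for Fzd3, 1.9e-05 for Fzd4, 0.00147 for Fzd5, 1.9e-04 for Fzd7, 0.0206 for Fzd8 and 0.0215 for Fzd10; Fzd9 had 0.170. The members' shares are near those of all genes, and nothing is read from them. Libraries of 1 mouse are not independent, which neither fit takes into account, and the spread within a gene is pooled over organs that differ in it.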

How the results depend on the processing

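The joint test called 4 pairs of a member and an organ. DESeq2 called 12 and more of all genes in every organ (1.26% in BST to 40.5% in iBAT). With no filter on low counts edgeR called 10, where the shares of all genes were 14.2% for OB, 7.00% for BRN, 8.09% for CBL, 2.45% for BST, 5.59% for STM, 15.8% for LIV, 16.3% for iBAT, 0.00335% for pgWAT and 0% for psWAT. The count was 4 with upper-quartile scaling, with no library left out, without the 4 libraries nearest another organ and with replicate number as a block. With that block Fzd2 in OB was called and Fzd4 in LIV was not (adjusted p = 0.0613); libraries of the same replicate number at different durations had mean correlations from -0.08 to 0.03, and 0.16 in iBAT. Without replicate number 1 the joint test called Fzd2 and Fzd4 in BST (0.442% of all genes) and Fzd7 in LIV (9.09%). It called none in OB (1.96%) or iBAT (15.0%). Without replicate number 2 it called Fzd3 in OB (11.8%) and none in LIV (0%). Without replicate number 3 it called Fzd4 and Fzd8 in LIV (8.54%) and none in OB (0.0605%). Fits with 1 library in a group, in BRN, STM, iBAT or psWAT, are not read. Single libraries were left out in turn in OB, LIV and iBAT only, the organs with a call. The calls of the other organs were held as in the main fit, so no new call could appear there. Outside iBAT 22 h this gave 3 to 6 pairs. No share of all genes is given, so nothing is read from that count. Without all iBAT 22 h libraries, a setting chosen after seeing the data, 2 pairs were called by the joint test. Against 0 h, 1 comparison was called, 3 by DESeq2 and 2 with no fold threshold. With no library left out 2 were called, both in iBAT, where 4169 of 14552 genes were called for at least 1 duration. Without replicate number 1, Fzd5 in iBAT at 22 h was called, where 3727 of 14310 genes were called for at least 1 duration. Without replicate number 3, Fzd8 in LIV at 18 h was called, where 559 of 13678 genes were. Leaving out LIV 18 h replicate 3 gave 2, with no share of all genes given. Leaving out replicate number 2 or 3, or iBAT 22 h replicate 2 or 3, leaves 1 library at 22 h in iBAT. Without replicate number 3, 1 library is also left at 18 h in BRN. No count is read from such groups. Without the iBAT 22 h libraries edgeR called 0, and 4 of the 32 remaining iBAT comparisons had an unadjusted p under 0.05. No share of all genes is given for that fit, so nothing is read from this count. DESeq2 was not run on those libraries. The causes were not tested. The highest organ was another one for Fzd2, Fzd3, Fzd9 or Fzd10 in some settings, as given with their levels. No LIV library held more than 3 counts of Fzd9 or 1 of Fzd10.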
